A study of Homo sapiens with 6 samples.

Results

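Mitochondria keep their own ribosome, which translates the few proteins encoded by mitochondrial DNA, all of them subunits of the oxidative phosphorylation complexes. Its proteins are encoded in the nucleus, made in the cytosol and imported, and they assemble on 2 rRNAs transcribed inside the organelle. The large subunit holds the peptidyl transferase centre and the exit tunnel, and the small subunit reads the messenger RNA. The genes described here were the protein-coding rows whose symbol begins with MRPL (large subunit) or MRPS (small subunit) followed by a digit. This rule took 78 of the 26389 genes counted, 48 for the large and 30 for the small subunit. The 78 rows carried 77 symbols, since MRPS17 was listed under 2 identifiers. Of these, ENSG00000249773.3 overlaps ENSG00000239789.5 and other genes on the same strand, so how reads were divided between them is uncertain. MRPS36 met the rule but is now regarded as a component of the 2-oxoglutarate dehydrogenase complex and not as a ribosomal protein. MRPS18A and MRPS30 carry small subunit symbols, although structures of the particle place both proteins in the large subunit.

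The study asked what a knockdown of TCTP does to the transcriptome of HepG2, a human hepatocellular carcinoma line. TCTP, the translationally controlled tumour protein encoded by TPT1, is a small and abundant cytosolic protein. A lipid reagent (Lipofectamine) carried plasmids into the cells, encoding a control hairpin in 3 libraries (shCtrl) and a hairpin against TCTP in the other 3 (shTCTP), so that the groups shared the line and the transfection and differed in the hairpin. The labels give each group 1 hairpin name and leave it unsaid whether its libraries were grown as separate cultures. The spread behind each p-value is therefore that of these 6 libraries and may be technical.

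The libraries held 25427614 to 30486409 reads assigned to genes. The shTCTP library 3 was the shallowest and had a mean correlation of 0.977 with the other libraries across genes, against 0.986 to 0.987 for the rest. TPT1 averaged 2371 ± 178 CPM in controls and 1799 ± 237 CPM in shTCTP libraries (SD, n = 3 each; CPM is the read count scaled to a common library size, here with TMM factors). On the log2 scale it differed by -0.40 (SE 0.17, edgeR adjusted p = 0.396), and all 3 shTCTP libraries lay below all 3 controls. So the transcript of the targeted gene did not pass the threshold of an adjusted p under 0.05. The 8 hepatocyte markers looked for were all present, albumin (ALB) at 3694 ± 501 CPM in controls (SD, n = 3). All 8 lay below 0 on the log2 fold change scale (median -0.28). For 3 of them every shTCTP library lay below every control, as in 7.3% of all genes tested. The lowest was TTR at -0.50 (SE 0.15, unadjusted p = 0.00532, adjusted p = 0.164 by edgeR). None of the 8 passed the threshold by edgeR, DESeq2 or limma voom, and 1, 4 and 1 had an unadjusted p under 0.05. Of all 14197 genes tested, 1572, 1480 and 1566 had such a p by these tools. Among markers of other cell types CD3E had 0 to 1 reads per library, PECAM1 0 to 5, COL1A1 3 to 37 and CD68 37 to 100. COL1A1 had a log2 fold change of 1.20 (SE 0.50, unadjusted p = 0.028, adjusted p = 0.37 by edgeR) and CD68 one of -0.52 (SE 0.28, edgeR adjusted p = 0.526). LYVE1, a lymphatic endothelial marker, had 92 to 218 reads and was higher in shTCTP (log2 fold change 1.05, SE 0.19, edgeR adjusted p = 0.00739). The part of these markers in the results below was not tested.

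Promoters of nuclear genes for mitochondrial proteins often carry sites for the factors NRF1, GABP (of the ETS family) and YY1, so the windows from 250 bases before to 50 bases after the RefSeq start (GRCh38.p14) were searched on both strands. A window was found for 68 of the 77 symbols. The ETS motif CCGGAAG stood in 41.2% of them (28), against 19.8% of 9211 windows of protein-coding genes tested here and 10.7% of all 27305 windows. The YY1 motif AAGATGGC stood in 29.4% (20), against 5.67% and 3.03%. Large and small subunit genes had both motifs at like shares, ETS in 39.0% of 41 and 44.4% of 27 windows, YY1 in 29.3% and 29.6%. The NRF1 core GCATGCGC was found in 8.82% of the windows (6), against 5.62% and 3.27%. The full NRF1 motif, which is the letters GC followed by that core and so overlaps it, was found in 1.47% (1), against 2.31% and 1.36%. The SP1 motif GGGCGG stood in 60.3% (41), against 71.0% and 44.6%, and the E-box CACGTG in 8.82% (6), against 10.4% and 7.43%. By subunit, SP1 stood in 53.7% of large and 70.4% of small subunit windows. The E-box stood in 12.2% (5) and 3.70% (1), and the NRF1 core in 9.76% and 7.41%. Whether the subunits differ in these shares was not tested. These are matches of letters and not measured binding.

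The 250 bases upstream of the RefSeq start are shown for MRPL32, MRPL30 and MRPS11. MRPL32 and MRPL30 are the large subunit genes at the upper and lower end of the comparison between hairpins. MRPS11 is the small subunit gene at the upper end of that comparison. Capitals mark the motifs named above on either strand. MRPL32 lies on the plus strand with its window at chr7:42932126-42932375, MRPL30 on the plus strand at chr2:99180934-99181183, and MRPS11 on the plus strand at chr15:88467458-88467707. Each line reads 5′ to 3′ along the gene.
MRPL32: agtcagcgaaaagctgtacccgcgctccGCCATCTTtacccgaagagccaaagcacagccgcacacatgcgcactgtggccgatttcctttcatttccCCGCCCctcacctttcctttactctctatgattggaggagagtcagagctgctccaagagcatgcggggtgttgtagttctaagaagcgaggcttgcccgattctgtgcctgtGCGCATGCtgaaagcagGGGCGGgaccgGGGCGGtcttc
MRPL30: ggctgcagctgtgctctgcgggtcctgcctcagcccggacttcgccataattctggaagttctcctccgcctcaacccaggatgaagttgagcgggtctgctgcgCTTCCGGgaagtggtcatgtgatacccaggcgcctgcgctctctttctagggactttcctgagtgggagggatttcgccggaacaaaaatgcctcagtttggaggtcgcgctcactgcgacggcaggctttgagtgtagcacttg
MRPS11: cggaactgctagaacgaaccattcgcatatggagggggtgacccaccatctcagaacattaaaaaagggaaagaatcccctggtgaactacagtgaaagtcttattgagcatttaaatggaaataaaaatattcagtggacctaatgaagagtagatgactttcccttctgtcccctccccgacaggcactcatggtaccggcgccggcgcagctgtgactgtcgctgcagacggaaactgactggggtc
The MRPL32 window held a YY1 match that begins 222 bases before the start, SP1 matches at 152, 22 and 11 bases and an NRF1 core match at 39 bases. MRPL30 had a single ETS match at 145 bases. These distances count from the RefSeq start. By GENCODE 29, MRPL32 starts at 42932200 and MRPL30 at 99181079, inside the windows shown. The YY1 match of MRPL32 and the ETS match of MRPL30 lie before those GENCODE starts. The SP1 and NRF1 core matches of MRPL32 lie after its GENCODE start. No searched motif lay in the 250 bases before the RefSeq start of MRPS11. By GENCODE 29, MRPS11 starts at 88467453, so the bases shown lie inside the gene. Those before that GENCODE start are not shown. The small subunit gene at the lower end was the uncertain MRPS17 row ENSG00000249773.3. Its window is not shown because that identifier overlaps several genes.

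Levels were compared between genes on the FPKM scale (fragments scaled for gene length and library size, as deposited). Over the 6 libraries the members had a median of 56.8 FPKM, against 2.73 FPKM for all genes tested, 100.0 FPKM for 76 nuclear oxidative phosphorylation subunits and 1136 FPKM for 82 cytosolic ribosomal protein genes. Large subunit genes had a median of 69.2 FPKM and small subunit genes 28.7 FPKM. MRPL12, which forms the flexible stalk that recruits translation factors, was the highest at 383 ± 40 FPKM (SD over 6 libraries). MRPS24 followed at 285 ± 25 FPKM, MRPL52 at 246 ± 30 FPKM and MRPS34 at 240 ± 22 FPKM, and the ranges of these last 3 genes, taken as mean ± SD, touched or overlapped. Next came MRPL14 at 217 ± 25 FPKM, MRPL33 at 201 ± 30 FPKM and MRPS18A at 193 ± 32 FPKM. MRPS26, at 145 ± 14 FPKM, was the next small subunit gene, and MRPL37, MRPL28, MRPL54 and MRPL38 lay between it and MRPS18A. At the other end stood MRPL42 at 1.14 ± 0.203 FPKM, MRPS17 (ENSG00000239789.5) at 4.09 ± 0.46 FPKM, MRPL1 at 5.83 ± 1.6 FPKM, MRPS31 at 7.68 ± 0.90 FPKM, MRPS33 at 7.85 ± 0.56 FPKM and MRPL19 at 8.84 ± 1.7 FPKM. The length implied by counts and FPKM was 16.7 kb for MRPL42, against a median of 1.71 kb for the members, and 15.7 to 24.7 CPM were counted for it per library. Its FPKM therefore rests on a gene model far longer than those of the other members.

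**Figure D1:**
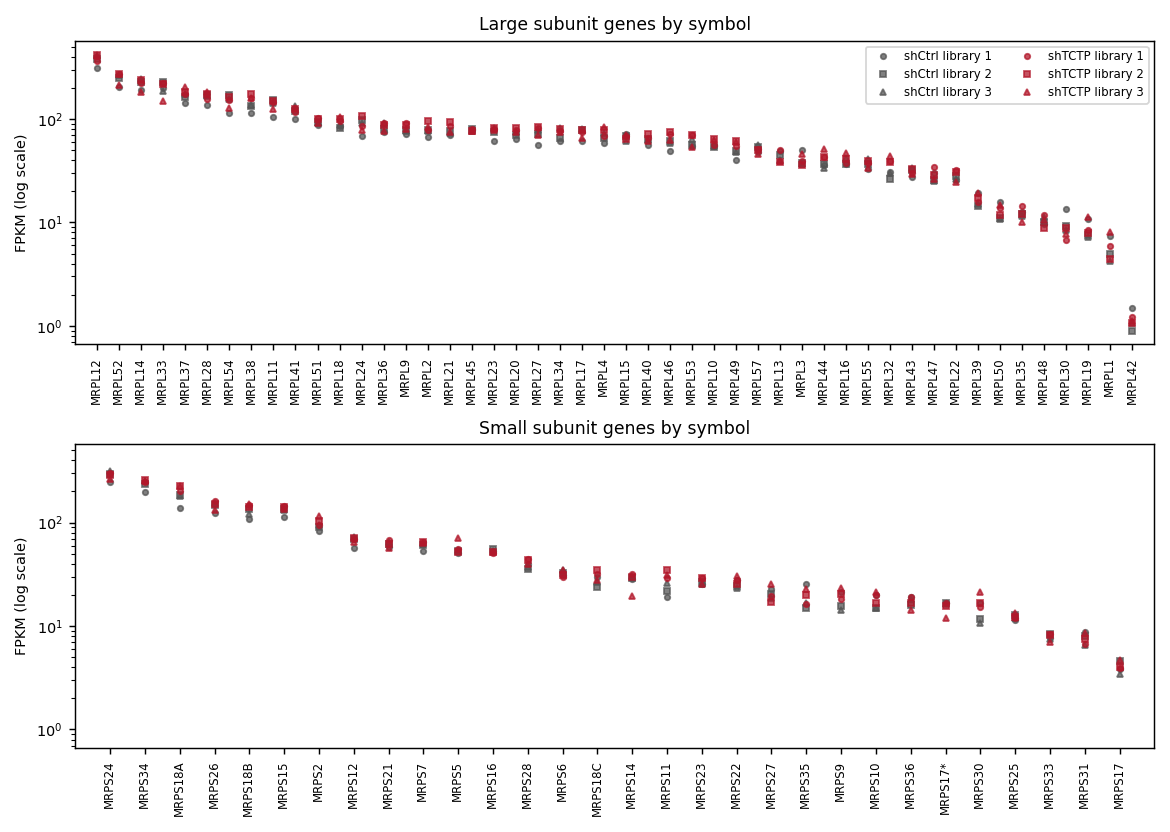
FPKM of each of the 78 members in each of the 6 libraries, on a log axis, in a panel for each subunit ordered by mean level; colour marks the hairpin, the symbol shape marks the replicate number, and MRPS17* is ENSG00000249773.3. MRPL12 (mean 383 FPKM) is highest and MRPL42 (mean 1.14 FPKM) lowest, and the small subunit genes lie lower (median 28.7 FPKM) than the large subunit genes (median 69.2 FPKM).

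The comparison between hairpins asked whether the mitoribosome genes moved with the TCTP knockdown. None of the 78 members passed the threshold in either direction by the edgeR quasi-likelihood test, against 1.41% of the 14197 genes tested (1.26% higher and 0.148% lower in shTCTP). All 78 members passed the filter on low counts. At an unadjusted edgeR p under 0.05 there were 5 members, MRPL30, MRPL32, MRPS11, MRPS30 and MRPL44, which is 6.41% of the members against 11.1% of all genes tested. DESeq2 and limma voom also called 0 members, with 4 and 5 at an unadjusted p under 0.05. The log2 fold changes of shTCTP over shCtrl ran from -0.52 for MRPL30 to 0.40 for MRPS11, with a median of 0.00, and 41 were above and 37 below 0. The median over all genes tested was -0.00.

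Most members had narrow intervals. For 72 of the 78 (92.3%) the whole 95% interval of the fold change lay within 1.5-fold either way, and for all 78 within 2-fold. Among all genes tested these shares were 49.2% and 81.0%. They were 82.9% and 98.7% for the nuclear oxidative phosphorylation subunits, and 46.3% and 97.6% for the cytosolic ribosomal protein genes. The 6 members whose interval reached past 1.5-fold were MRPL30, MRPL32, MRPS11, MRPS14, MRPS30 and the MRPS17 row ENSG00000249773.3. The intervals cover the spread between these libraries only.

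**Figure D2:**
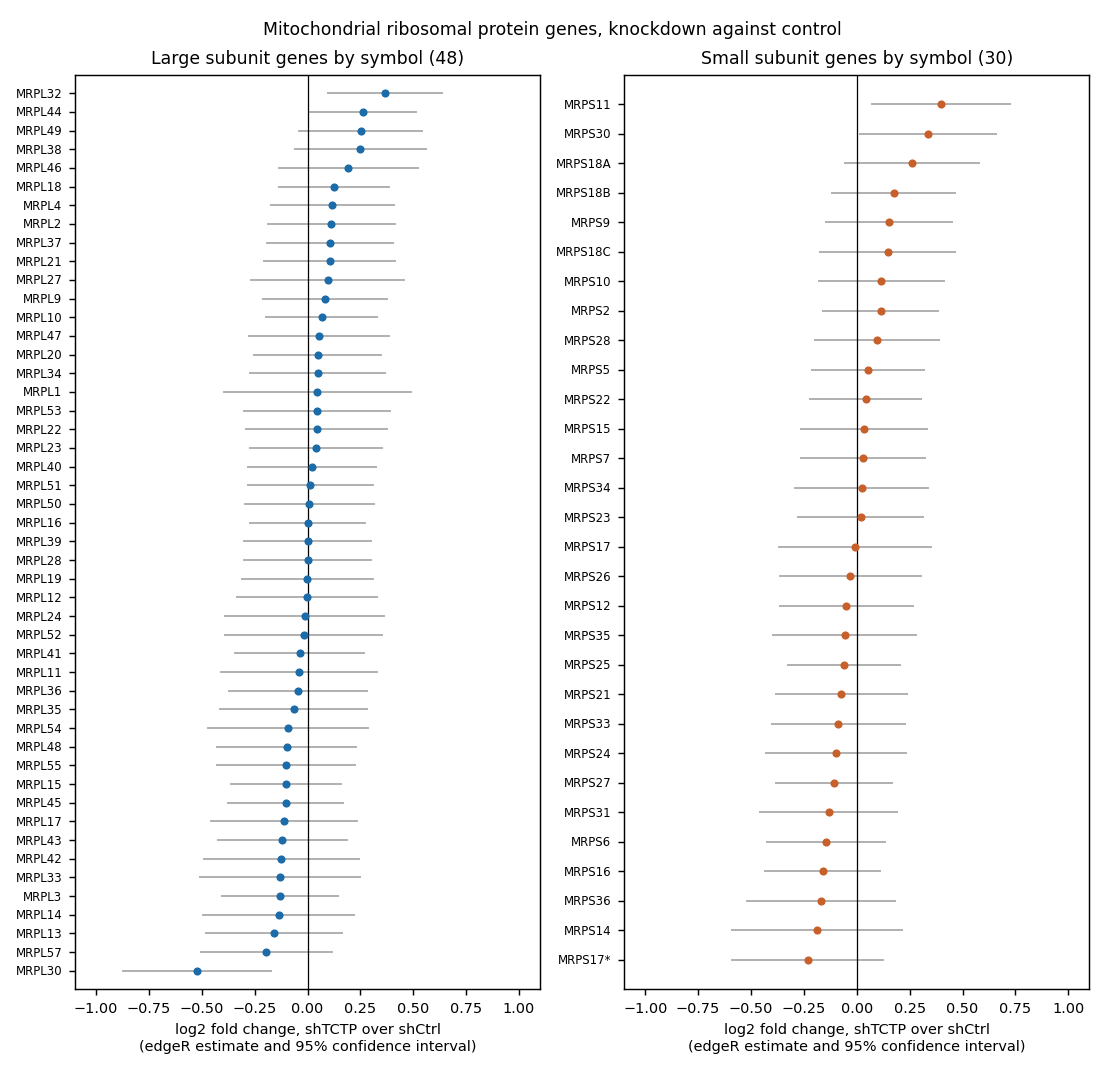
Log2 fold change of shTCTP over shCtrl for each member with its 95% interval, with the large subunit in the left panel and the small subunit in the right. The points run from -0.52 (MRPL30) to 0.40 (MRPS11) and scatter on both sides of 0; the row MRPS17* is ENSG00000249773.3.

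The large and the small subunit were next set against each other. By symbol, the 48 large subunit genes had a median log2 fold change of 0.00, with 26 above and 22 below 0, and the 30 small subunit genes a median of 0.00, with 15 above and 15 below. Summed over the large subunit, the level was 5749 ± 725 CPM in control and 5833 ± 732 CPM in shTCTP libraries (SD, n = 3 each). The small subunit summed to 2912 ± 300 CPM and 2979 ± 302 CPM (SD, n = 3 each). The ratio of the large to the small sum was 1.92, 1.98 and 2.01 in control libraries 1 to 3 and 1.95, 2.03 and 1.89 in shTCTP libraries 1 to 3. These ratios overlapped between the groups. The sums and ratios follow the symbols. With MRPS18A and MRPS30 counted in the large subunit and MRPS36 left out, the median log2 fold changes were 0.005 for the large and -0.010 for the small subunit.

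Genes with a bacterial homologue and genes found only in the mitochondrial particle were also alike in their medians. The 30 large subunit genes with a bacterial homologue had a median log2 fold change of 0.00 and the 18 specific to mitochondria 0.01. In the small subunit the 17 rows with a homologue had a median of 0.03 and the 10 specific ones -0.04. In each of these groups 0 genes passed the threshold by edgeR, with 2, 1, 1 and 0 at an unadjusted p under 0.05, and DESeq2 and limma voom called 0 as well.

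Within the large subunit, 3 sites of known function were described through their proteins. The stalk, where elongation factors dock, is built on MRPL10 and MRPL11 and carries copies of MRPL12. MRPL12 had 331, 424 and 483 CPM in control libraries 1 to 3 and 408, 453 and 376 CPM in shTCTP libraries 1 to 3 (log2 fold change -0.00, SE 0.16, edgeR adjusted p = 0.996). The groups overlapped, and the lowest library was a control. MRPL10 had 127, 134 and 141 CPM in control and 139, 153 and 129 CPM in shTCTP libraries (log2 fold change 0.07). MRPL11 had 184, 284 and 277 CPM against 268, 267 and 191 CPM (log2 fold change -0.04), with the 2 lowest values in control library 1 and shTCTP library 3.

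The 8 genes around the exit of the peptide tunnel (MRPL17, MRPL22, MRPL23, MRPL24, MRPL39, MRPL44, MRPL45 and MRPL47) had a median log2 fold change of 0.02. Of these, 5 were above and 3 below 0. MRPL45, which tethers the particle to the inner membrane, had a log2 fold change of -0.10, and MRPL17 and MRPL24 had -0.11 and -0.01. MRPL44, a protein with a ribonuclease III-like fold, had 64.1, 70.0 and 67.0 CPM in control and 82.3, 79.3 and 79.7 CPM in shTCTP libraries. All 3 shTCTP libraries lay above all 3 controls. The log2 fold change was 0.26 (SE 0.12, 95% interval 0.01 to 0.52), with an unadjusted p of 0.0457 and an adjusted p of 0.435 by edgeR.

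The central protuberance, where the mitochondrial particle holds a tRNA in place of 5S rRNA, was represented by MRPL18, MRPL27, MRPL38, MRPL40, MRPL46 and MRPL48. Their median log2 fold change was 0.11, with 5 above 0 and 1 below, and 0 passed the threshold by edgeR, DESeq2 or limma voom, nor had an unadjusted p under 0.05. MRPL38 stood highest among them, at 222, 274 and 295 CPM in control and 325, 343 and 270 CPM in shTCTP libraries (log2 fold change 0.25, SE 0.15, edgeR adjusted p = 0.575). The shTCTP library 3 fell within the control range. MRPL46 had 80.6, 106 and 107 CPM in control and 124, 124 and 88.4 CPM in shTCTP libraries (log2 fold change 0.19). MRPL18 had a log2 fold change of 0.13, MRPL27 0.10, MRPL40 0.02 and MRPL48 -0.10.

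MRPS18A and MRPS30, the pair with small subunit symbols that sit in the large subunit, both had positive log2 fold changes. MRPS18A had 151, 213 and 220 CPM in control and 235, 250 and 215 CPM in shTCTP libraries (log2 fold change 0.26, SE 0.15, edgeR adjusted p = 0.562). Its groups overlapped through shTCTP library 3. MRPS30 had 28.9, 21.5 and 20.3 CPM in control and 28.1, 29.1 and 32.0 CPM in shTCTP libraries (log2 fold change 0.33, SE 0.15, 95% interval 0.01 to 0.66, edgeR adjusted p = 0.433), and control library 1 lay within the shTCTP range. Without control library 1 the log2 fold change was 0.11 for MRPS18A and 0.51 for MRPS30, and without control library 3 that of MRPS30 was 0.23. MRPS18A has 2 paralogues that stay in the small subunit. Their log2 fold changes were 0.17 (SE 0.14) for MRPS18B and 0.15 (SE 0.15) for MRPS18C.

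The members with the highest and lowest differences were examined library by library. MRPL32, a large subunit protein whose maturation by the m-AAA protease is a step of particle assembly, had 32.7, 30.0 and 35.5 CPM in control and 44.0, 41.7 and 40.8 CPM in shTCTP libraries. Its groups did not overlap. The log2 fold change was 0.37 (SE 0.13, 95% interval 0.09 to 0.64), with an unadjusted p of 0.012 and an adjusted p of 0.249 by edgeR. MRPS11, a small subunit protein on the platform beside the messenger RNA path, had 70.5, 86.9 and 107 CPM in control and 115, 132 and 102 CPM in shTCTP libraries. The shTCTP library 3 lay below control library 3. Its log2 fold change was 0.40 (SE 0.16, 95% interval 0.07 to 0.73, edgeR adjusted p = 0.33).

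MRPL30, a large subunit protein with a bacterial homologue, stood at the lower end. It had 39.1, 28.4 and 27.0 CPM in control and 20.6, 25.9 and 19.2 CPM in shTCTP libraries. The groups did not overlap on this scale, although shTCTP library 2 lay close to control library 3. On the FPKM scale they did overlap, with 8.83 FPKM in shTCTP library 2 and 8.5 FPKM in control library 3. The log2 fold change was -0.52 (SE 0.17, 95% interval -0.88 to -0.17), with an unadjusted p of 0.00647 and an adjusted p of 0.18 by edgeR, the smallest of the members. MRPL30 (chromosome 2, 99181079 to 99197626, plus strand, GENCODE 29 on GRCh38) overlaps C2orf15 on the same strand, so the division of reads between these genes is uncertain. After MRPL30 and the uncertain MRPS17 row (-0.23), the lowest log2 fold changes were those of MRPL57 (-0.19), MRPS14 (-0.19) and MRPS36 (-0.17). MRPS14 had 61.8, 67.3 and 72.8 CPM in control and 73.5, 66.3 and 37.2 CPM in shTCTP libraries, with shTCTP library 3 far below the other 5. Among the 5 lowest genes of each subunit were also MRPL13 (-0.16), MRPL14 (-0.14) and MRPL3 (-0.13) of the large and MRPS16 (-0.16) and MRPS6 (-0.14) of the small subunit. Of the members with higher log2 fold changes not yet described, MRPL49 stood at 0.25 (89.1, 114 and 117 CPM in control and 128, 139 and 115 CPM in shTCTP libraries) and MRPS9, a small subunit protein, at 0.15. None of these had an unadjusted p under 0.05 by edgeR.

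**Figure D3:**
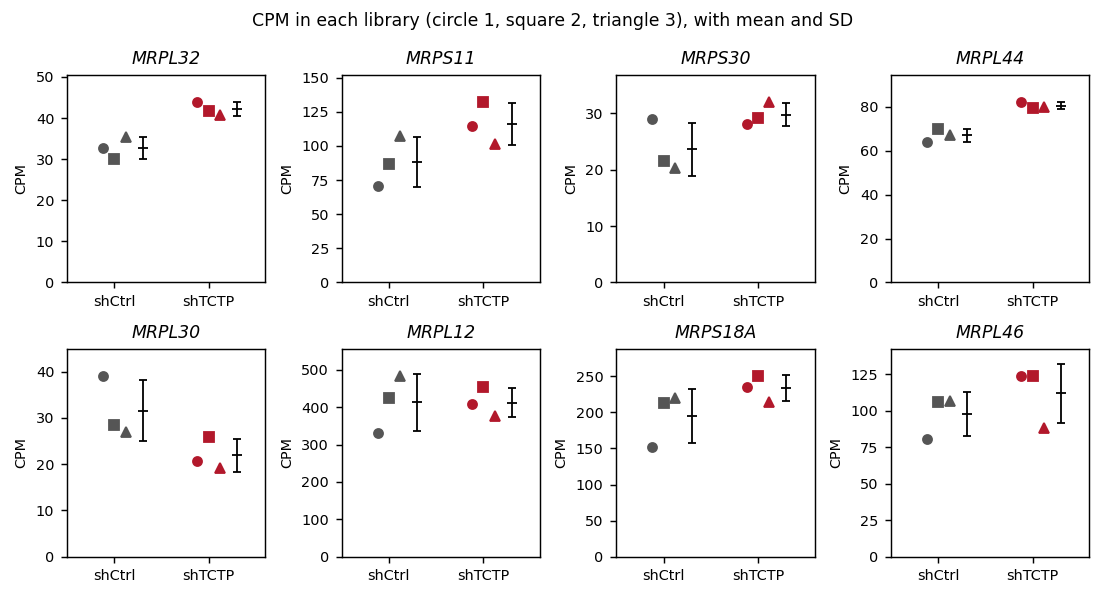
CPM of 8 members in each library, with symbols for replicate numbers 1 to 3 and the mean and SD of each group beside them; each vertical axis starts at 0. MRPL32 and MRPL44 show 3 shTCTP libraries above all controls and MRPL30 shows 3 below; in the other 5 genes the groups overlap.

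MRPL32, MRPL44 and MRPL30 were the only members whose 3 shTCTP libraries lay wholly above or below the 3 controls. That is 3.85% of the 78 members, against 17.1% of all genes tested (9.83% above and 7.3% below). None of the 30 small subunit genes showed such a separation. The count depended on the libraries and on the scaling. It was 18 without control library 1 (7 above, 11 below, against 32.1% of all genes) and 18 without shTCTP library 3 (16 above, 2 below, against 27.6%). With library size as the only scaling it was 16 (15 above, 1 below, against 16.8%). On FPKM values it was also 16 (15 above, 1 below, against 16.2%), and the 1 below was MRPS16 and not MRPL30.

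Members shared a pattern over the libraries that did not follow the hairpin. The median deviation of the members from their own mean log2 CPM was -0.15, 0.04 and 0.08 in control libraries 1 to 3 and 0.14, 0.09 and -0.20 in shTCTP libraries 1 to 3. Control library 1 was the lowest library for 28 members and shTCTP library 3 for 34, and each of the other 4 libraries for 1 to 8. Across all genes tested the same libraries held the minimum for 16.4% and 22.5%. Summed over all members the level was 7523, 8951 and 9510 CPM in control and 9423, 9390 and 7623 CPM in shTCTP libraries, with means of 8661 ± 1025 and 8812 ± 1030 CPM (SD, n = 3 each). Large subunit genes deviated by -0.19 and -0.23 in control library 1 and shTCTP library 3, and small subunit genes by -0.10 and -0.14.

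**Figure D4:**
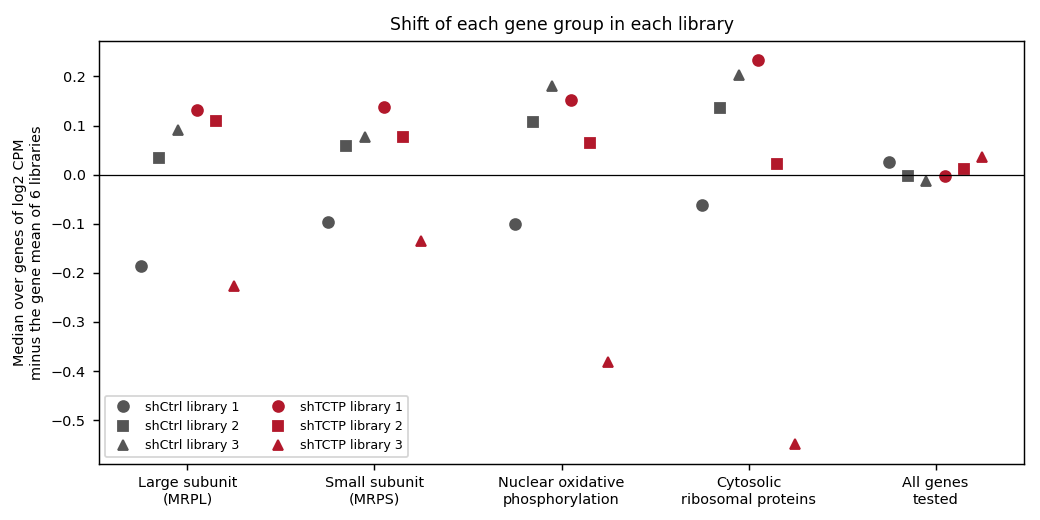
Median deviation of each gene group from its genes' mean log2 CPM in each library, for the large and small subunit of the mitochondrial ribosome, nuclear oxidative phosphorylation subunits, cytosolic ribosomal protein genes and all genes tested. Control library 1 and shTCTP library 3 are low for both mitoribosome subunits, and the cytosolic ribosomal protein genes reach -0.55 in shTCTP library 3.

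Cytosolic ribosomal protein genes, which encode the ribosome of the cytosol, and oxidative phosphorylation subunits, which join the products of the mitochondrial ribosome, showed the drop in shTCTP library 3 more deeply. The former deviated by -0.55 there, and that library was the lowest for 82 of 82 genes. The latter deviated by -0.38, and it was the lowest for 61 of 76. Their median log2 fold changes were -0.16 and -0.11, with 78 and 64 genes below 0. In neither list did a gene pass the threshold by edgeR, DESeq2 or limma voom, and edgeR gave 0 and 2 genes an unadjusted p under 0.05. Whether these lists differ from the members in their response was not tested. The 2 rRNAs of the particle, MT-RNR1 and MT-RNR2, made up 4.48%, 3.52% and 4.24% of reads in control and 3.97%, 3.61% and 1.83% in shTCTP libraries. In libraries selected for poly(A) tails these shares depend on how much rRNA was carried through. On the log2 scale MT-RNR2 differed by -0.62 (SE 0.29, edgeR adjusted p = 0.454) and MT-RNR1 by -0.19 (SE 0.32, edgeR adjusted p = 0.877).

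The low values of control library 1 went with base composition. Across the 78 members, the deviation in that library had a Spearman correlation of -0.72 with the GC content of the longest transcript. That correlation was 0.25 and 0.57 in control libraries 2 and 3 and -0.23 and 0.41 in shTCTP libraries 1 and 2. These are descriptions across genes of shared libraries, which are not independent replicates. Of the 39 members with the higher GC content (47.7% to 71.9%), 38 lay below their own mean in control library 1 and 38 above it in control library 3. Of the 39 with the lower GC content (33.5% to 47.6%), 20 lay above and 19 below their own mean in control library 1. Among them, MRPL30 (43.2% GC), MRPL19 (38.3%) and MRPL1 (39.1%) were at their highest there, with 39.1, 42.5 and 11.3 CPM. By contrast, MRPL46 (40.2%), MRPL32 (37.5%) and MRPL27 (44.2%) lay below their mean there, with deviations of -0.36, -0.18 and -0.42. In shTCTP library 3 the correlation with GC content was -0.06, and 32 of the GC-richer and 30 of the GC-poorer 39 lay below their mean. Over all genes tested the correlation was -0.32, 0.10 and 0.38 in control libraries 1 to 3. In shTCTP libraries 1 to 3 it was -0.14, 0.34 and -0.22. With a correction for GC content the median log2 fold change was 0.02 for the large and -0.00 for the small subunit. With a correction for length instead, these medians were 0.04 and 0.00. In both fits 0 members passed the threshold by edgeR.

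**Figure D5:**
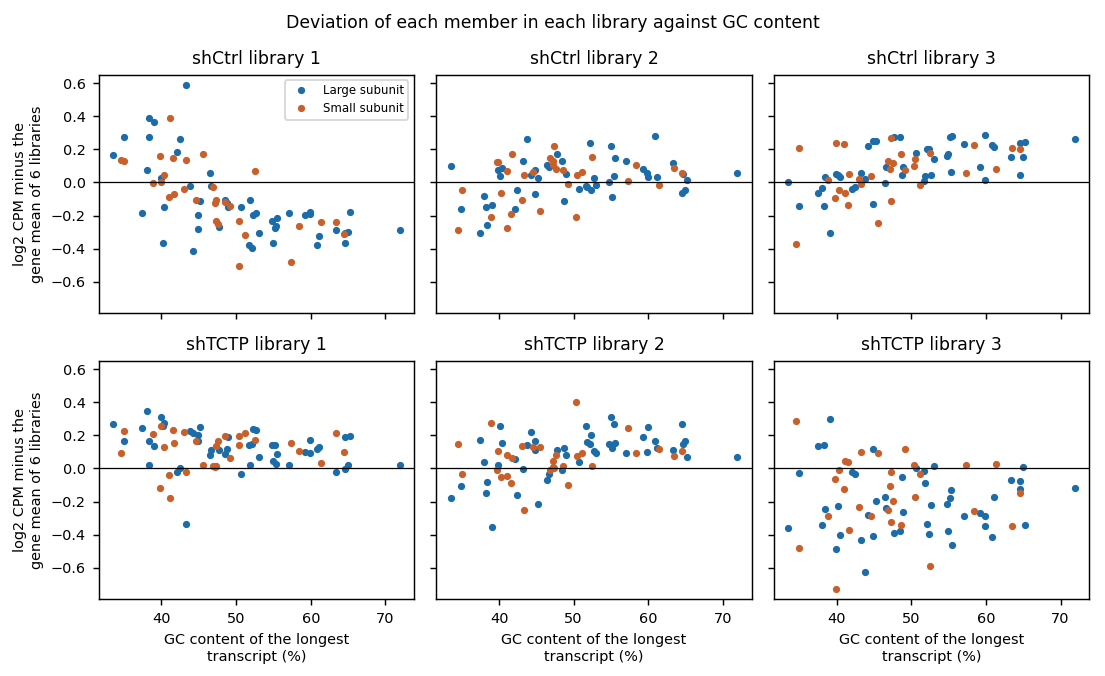
Deviation of each member from its mean log2 CPM in each of the 6 libraries, plotted against GC content and coloured by subunit. In control library 1 the points descend from left to right (Spearman correlation -0.72), in control library 3 they ascend (0.57), and in shTCTP library 3 they lie low at all GC contents (-0.06).

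Leaving out either of the low libraries moved the members' median in opposite directions. Without shTCTP library 3 the median log2 fold change was 0.12 for the large and 0.07 for the small subunit, and 60 of the 78 members were above 0. Without control library 1 both medians were -0.07, and 28 members were above 0. No member passed the edgeR threshold in either fit, with 7 and 3 members at an unadjusted p under 0.05. Over all genes, 343 of 14440 passed the threshold without shTCTP library 3 and 90 of 14491 without control library 1. As a share of all reads, without TMM factors, the members made up 0.765%, 0.856% and 0.873% of control and 0.902%, 0.939% and 0.888% of shTCTP libraries, so every shTCTP library lay above every control. With library size as the only scaling, the median of the members was 0.11, and so was that of all genes tested. Relative to that shift the members' median was 0.00.

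Other proteins of the particle and the machinery around it were described from lists of known function. The 6 proteins of the mitochondrial ribosome listed under other symbols had a median log2 fold change of 0.04. Among them DAP3, the GTP-binding protein of the small subunit, averaged 116 ± 9.16 CPM in control and 115 ± 5.21 CPM in shTCTP libraries (SD, n = 3 each). ICT1, a release factor homologue built into the large subunit, stood at 89.7 ± 8.34 and 102 ± 24.9 CPM (SD, n = 3 each), with a log2 fold change of 0.18, and GADD45GIP1, another large subunit protein, had 0.08. The 26 genes of assembly and rRNA modification had a median of 0.03. Of these, DHX30, an RNA helicase of mitochondrial RNA granules, had 115, 128 and 126 CPM in control and 141, 160 and 145 CPM in shTCTP libraries (log2 fold change 0.28, SE 0.13, edgeR adjusted p = 0.423). YBEY, an endoribonuclease for rRNA of the small subunit, had 3.31, 3.68 and 3.27 CPM against 2.95, 2.69 and 2.03 CPM (log2 fold change -0.42, SE 0.23, edgeR adjusted p = 0.513). The groups did not overlap for either gene, and over the 26 genes 1 lay wholly above and 3 wholly below the controls, against 9.83% and 7.3% of all genes tested.

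The 15 mitochondrial translation factors had a median of -0.01. MTRF1L, a release factor, showed a difference of 0.30 on the log2 scale (SE 0.15), and GFM2, which splits the ribosome after termination, -0.34 (SE 0.19). The 11 genes of mitochondrial DNA transcription and upkeep had a median of -0.05, with TEFM, the transcription elongation factor, at 0.40 (SE 0.22) and TFAM, which packages mitochondrial DNA, at 0.23 (SE 0.21). The 10 regulators of nuclear genes for mitochondrial proteins had a median of 0.09. NRF1, a factor whose motif was searched above, had 14.4, 15.7 and 17.0 CPM in control and 19.5, 19.3 and 21.2 CPM in shTCTP libraries (log2 fold change 0.35, SE 0.14, edgeR adjusted p = 0.362). PPRC1, a coactivator that works with NRF1, had 38.9, 36.7 and 36.3 CPM against 41.3, 49.8 and 53.7 CPM (log2 fold change 0.37, SE 0.14, edgeR adjusted p = 0.267). Both lay higher in all 3 shTCTP libraries than in any control. PPARGC1A, the coactivator PGC-1α, lay lower in all 3, at 3.25, 2.95 and 3.05 CPM in control and 2.5, 2.56 and 2.87 CPM in shTCTP libraries (log2 fold change -0.22, SE 0.22, edgeR adjusted p = 0.77). The lowest log2 fold change of the list was that of its relative PPARGC1B, -0.66 (SE 0.33, edgeR adjusted p = 0.478), whose groups overlapped. For the ETS, YY1 and SP1 motifs, the log2 fold changes were 0.12 (SE 0.37) for GABPA and 0.13 (SE 0.19) for GABPB1 of GABP. YY1 had 0.09 (SE 0.16) and SP1 -0.02 (SE 0.15), and in each of these genes the groups overlapped. So 2 of the 10 regulators lay wholly above and 1 wholly below the controls, against 9.83% and 7.3% of all genes tested. In these 5 lists 0 genes passed the threshold by edgeR, DESeq2 or limma voom, and edgeR gave 0, 1, 0, 0 and 2 genes an unadjusted p under 0.05.

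Many mitoribosome genes start close to a neighbour transcribed the other way. By GENCODE 29 starts, 27 of the 78 members (34.6%) had a tested protein-coding gene in head-to-head orientation with its start within 1000 bases, against 16.0% of 12161 tested protein-coding genes. MRPS11 and MRPL46 faced each other with starts 34 bases apart and were the only pair in which both genes were members. Their RefSeq promoter windows shared 181 bases, and their log2 fold changes were 0.40 and 0.19. Apart from this pair, MRPL30 faced MITD1 at 21 bases, with log2 fold changes of -0.52 and 0.20, and MRPL32 faced PSMA2 at 23 bases, with 0.37 and -0.11, PSMA2 being counted at 1.13 CPM in controls. MRPL36 faced NDUFS6, a subunit of complex I, at 34 bases, with -0.05 and 0.06. By edgeR 0 of the 27 partners passed the threshold, and 3 (MRPS11, OAZ3 and PPP1R10) had an unadjusted p under 0.05.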

How the data were processed

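Polyadenylated RNA of the 6 HepG2 libraries was sequenced as directional 150-base read pairs, per the labels' protocols. The authors deposited raw counts of reads for each gene and, in a separate table, FPKM values. Processing used bcl2fastq, TopHat2, edgeR and GRCh38, per the submitters' processing notes. Their versions, the annotation and any use of strand are not stated there or in the labels, so reads of overlapping and antisense genes may not be separable.

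The deposited counts of all 26389 genes entered edgeR 4.0.16 (R 4.3.3), where filterByExpr removed low genes, TMM set the scaling, and a robust quasi-likelihood model held only the group. Benjamini-Hochberg adjustment of its p-values ran over the 14197 genes that passed the filter, with a threshold of 0.05. Standard errors and 95% intervals were computed from each estimate and its F statistic. Log2 CPM used a prior count of 2. The procedure was tested on simulated counts that had the same dispersion for all genes and lacked the library shifts described above. Library pairs within a group differed beyond sampling noise (chi-square over degrees of freedom from 13.9 to 85.7), and none was therefore counted as a duplicate. Coordinates and GC content came from GENCODE release 29 (98.0% of identifiers matched), and promoters from RefSeq, taking the first start listed per symbol.

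The members and the lists were chosen with earlier results of these data known. The text names every member past the threshold, the 5 highest and 5 lowest log2 fold changes and the 4 highest and 3 lowest FPKM of each subunit, the members of the structural lists, and from the other lists 2 genes with the smallest p. MRPS18C, MRPL36, MRPL28, MRPL37, MRPL54, DAP3, PPARGC1A, PPARGC1B, GABPA, GABPB1, YY1, SP1 and the neighbouring genes were chosen after their values were seen. Alternatives were RLE, upper quartile and library size scaling (the last chosen after seeing the data), no low-count filter, a stricter filter of 1 CPM in 3 libraries, the replicate block, dispersion without robust fitting, DESeq2 1.42.0, limma 3.58.1 (voom, and log2 FPKM with pseudocounts of 1 and 0.1), loess corrections for length and GC content (span 0.3), another assignment of subunits, and each library left out in turn. Figures were drawn with matplotlib 3.10.9. Proteins and reads along transcripts were not analysed here.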

Additional observations from a re-analysis of the deposited data

How the results depend on the processing

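No member passed the threshold under any of the 19 alternatives, and the smallest adjusted p in any of them was 0.0537 (MRPL30, edgeR without a filter on low counts). The number of members whose groups did not overlap, 3 in the main analysis, was 16 with library size as the only scaling, 16 on FPKM values (against 16.8% and 16.2% of all genes), and 3 to 18 with 1 library left out. It was 18 without control library 1 (32.1% of all genes), 12 without control library 3 (24.8%), 10 without shTCTP library 1 (28.0%) and 18 without shTCTP library 3 (27.6%). With 1 library left out, fewer libraries have to separate. The cause of these differences in the count was not tested. Of 45 named members, 20 had differences of 1 sign in every alternative and 25 switched sign in at least 1. MRPL30 ranged from -0.67 to -0.34, MRPL32 from 0.31 to 0.48, MRPL44 from 0.23 to 0.37, MRPS11 from 0.26 to 0.56, MRPS18A from 0.11 to 0.38 and MRPS30 from 0.23 to 0.51. On log2(FPKM + 1) the medians were 0.11 for the large and 0.09 for the small subunit, against 0.06 for all genes tested.

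With the replicate number as a block, 0 members passed the threshold, 3 had an unadjusted p under 0.05, and the medians were 0.01 for the large and 0.00 for the small subunit. The block reduced the calls over all genes from 200 to 130. Same-numbered libraries did not deviate together (correlations of -0.23, 0.00 and -0.20), so the numbers were not taken to pair the libraries.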

Other observations

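Pseudogenes of the mitoribosome genes took few reads. MRPS31P5, a transcribed pseudogene, had 66 to 101 reads per library, and 7 other pseudogene rows had 0 to 8. MRPL23-AS1, an antisense transcript at the MRPL23 locus, had 241, 341 and 268 reads in control and 220, 283 and 229 reads in shTCTP libraries (log2 fold change -0.24, SE 0.19, edgeR adjusted p = 0.69). Its groups overlapped.

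The 78 members lay on 21 chromosomes, with 8 each on chromosomes 1 and 2 and 7 each on chromosomes 11 and 17. By GENCODE coordinates, 46 members overlapped another counted gene and 13 overlapped a protein-coding gene on the same strand. MRPL12, the highest member by FPKM, overlaps the listed gene RP13-1032I1.10, and MRPL28 overlaps TMEM8A. MRPS24 overlaps URGCP-MRPS24, MRPL33 overlaps BRE, MRPL38 overlaps RP11-552F3.12, MRPS16 overlaps DNAJC9 and MRPS6 overlaps SLC5A3, all on the same strand. How reads were divided between such genes is uncertain.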
